A study of Mus musculus with 12 samples.

Results

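The loci described here were the 150 of 47478 5hmC peaks of the E14.5 mouse cortex whose level in differentiative progenitors (DP) was higher by at least 0.75 on the log2 scale, that is 1.68-fold, than both in proliferating progenitors (PP) and in neurons (N). They will be called transient loci. They were chosen by their 5hmC levels, so these levels are given below as a description and support nothing. The converse pattern, at least 0.75 lower in DP than in both PP and neurons, was held by 279 peaks, called mirror loci, and served for comparison.

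Cells were FAC-sorted from the cortex of embryos carrying a Btg2RFP and a Tubb3GFP reporter allele together. PP, labelled as stem cells, lacked both reporters, DP, labelled as neurogenic progenitors, had RFP without GFP, and neurons had GFP whatever their RFP. The gate for PP rests on the absence of both reporters and may therefore hold other reporter-negative cells of the cortex. Adaptors with a barcode per cell type were put on the sheared DNA. The cell types were then mixed and shared each pull-down (MeDIP for 5mC, hMeDIP for 5hmC). In the labels, 12 samples (6 IP and 6 input) are listed without any separation of replicates. The tables hold 1 level per cell type and peak, the authors' mean over replicates that the methods describe as biological, on a log2 scale of normalized reads. There is therefore no replicate spread, and no error and no read count behind a level can be given from the tables. Differences between cell types and between sets of loci are therefore descriptions without a test.

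In earlier RNA-seq of these cell types by the authors, expression followed the labels. No sample of this series gave these values, so they do not show the make-up of the cells whose DNA was used. Of genes with a value, 16 of 16 radial glia genes were highest in PP, 16 of 18 genes of differentiative progenitors in DP, and 17 of 17 neuronal genes in neurons. Btg2 was at 19335, 38556, and 7484 in PP, DP, and neurons, and Tubb3 at 3814, 25259, and 105657. All 7 microglial genes and 8 of 9 endothelial and mural genes with a value were highest in PP, with summed expression of 441, 260, and 95.6 for microglia and of 1955, 762, and 253 for endothelial and mural cells in PP, DP, and neurons. Oligodendrocyte precursor genes were highest in PP at 3 of 5, and interneuron genes were highest in neurons at 7 of 8, with sums of 7374, 7732, and 14041. The part of these other cells in the levels of any cell type was not tested. Neither transient nor mirror loci were found among the 9 peaks near microglial, 16 near interneuron, and 15 near oligodendrocyte precursor genes, and beside the overall shares of 0.316% and 0.588% these counts of 0 carry little information. Of 59 peaks near endothelial and mural genes 0 were transient and 2 (3.39%, both at Flt1) were mirror loci.

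In the removal of cytosine methylation, Tet enzymes oxidize 5mC to 5hmC, which can be oxidized further and replaced by unmodified cytosine or be diluted by replication. 5hmC can also stay as a mark of its own, and it is abundant in neurons. DP, the progenitors committed to produce neurons, lie between both in the lineage. Antibody pull-down measures enrichment over a stretch of DNA, not the state of a single cytosine.

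Few transient loci lay at a promoter, and the sequence of a transient locus could be read in part only where it fell within the 250 bases before a RefSeq transcription start (GRCm38.p6, the assembly called mm10). By the RefSeq starts, which differ from those of the authors at some genes, this held for 1 of the 150 loci. The locus of Tmc2, 213 bp upstream by the authors' distance, was not counted in a RefSeq window. The 1 locus was a peak within Ror2, a Wnt5a receptor gene, that overlaps the window before Gm52058. Its first 112 bases (chr13:53169609-53169720, plus strand) are shown with both CpG, the dinucleotides that carry most cytosine modification, in capitals. Beside it stands the part of the mirror locus at the start of Pak3 (chrX:143518506-143518590, plus strand) that lies before the start, with its 2 CpG in capitals. The tables do not state whether starts count from 0 or 1, so both stretches may be shifted by a base.
Ror2 transient locus: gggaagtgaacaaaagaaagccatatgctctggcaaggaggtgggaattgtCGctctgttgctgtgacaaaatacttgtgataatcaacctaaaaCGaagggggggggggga
Pak3 mirror locus: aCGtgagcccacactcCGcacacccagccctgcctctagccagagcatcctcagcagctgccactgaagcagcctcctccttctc
Both stretches are poor in CpG beside the promoters printed further on. At the Ror2 locus 5hmC was at 2.07, 4.57, and 3.79 in PP, DP, and neurons, and at the Pak3 start at 4.74, 3.42, and 4.27.

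The transient pattern was rare. Transient loci made up 0.316% of 5hmC peaks and mirror loci 0.588%, a ratio of 0.538 transient loci for each mirror locus. Peaks highest in PP by the same difference made up 0.583% (277 peaks) and peaks highest in neurons 10.2% (4840 peaks), so that a level highest in the middle cell type was the least frequent of the patterns with a single high cell type. Lowering the minimum to 0.5 gave 708 transient and 948 mirror loci, and raising it to 1.0 gave 48 and 81. At 2.0 the order turned, with 5 transient and 2 mirror loci. The order also turned among peaks whose mean level reached the median of all peaks, where 20 transient and 16 mirror loci were found. Among the settings tried, transient loci outnumbered their mirror only in these last 2, on small counts.

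**Figure D1:**
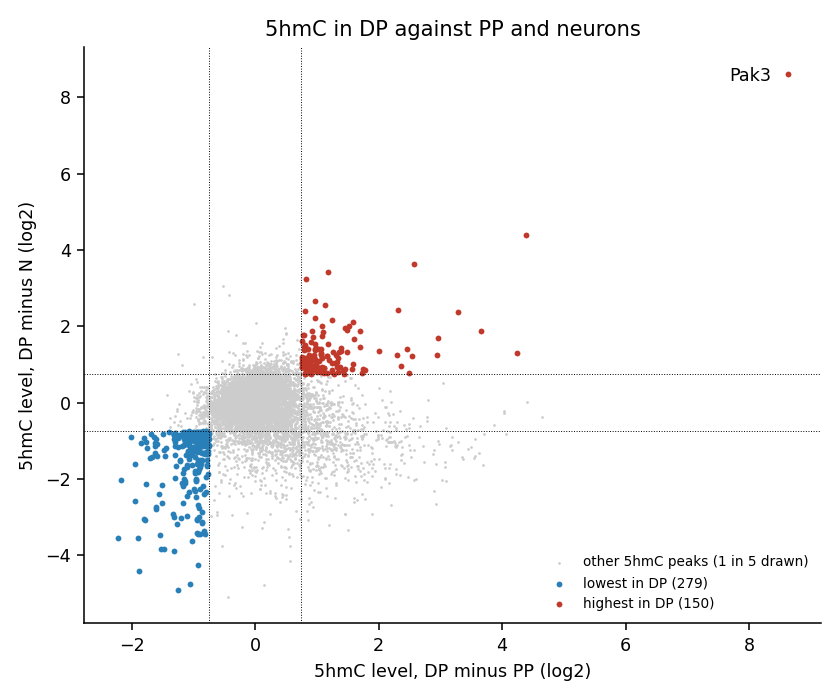
5hmC level in DP minus PP (horizontal, log2) against DP minus neurons (vertical, log2), with the minimum of 0.75 as dotted lines. Each point is 1 peak, and only a minor part of the peaks outside both sets (gray) is drawn. The 150 transient loci (red) lie in the upper right corner and the 279 mirror loci (blue) in the lower left; Pak3 stands alone at the upper right end.

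Members of both sets had low levels. The median 5hmC level at transient loci, in PP, DP, and neurons, reached 3.73, 4.76, and 3.66, against 4.72, 4.71, and 4.75 over all peaks, and their level in DP was thus close to that of an ordinary peak while those in PP and neurons were low. In linear terms the medians were 13.3, 27.1, and 12.6 normalized reads, and the median difference was 2.03-fold to PP and 2.18-fold to neurons. Mirror loci were at 4.35, 3.28, and 4.54. By mean level, 130 of 150 transient and 263 of 279 mirror loci lay below the median of all peaks, and the lowest 20% of peaks held 101 transient (67.3%) and 189 mirror loci (67.7%). Both sets thus came from the low end of the table, where a given difference in reads is a larger difference on the log2 scale, and the part of low levels in either pattern was not tested. Levels in PP and neurons were within 0.75 of each other at most transient loci. Neurons were above PP at 66 loci and below at 84, and the 2 levels lay within 0.25 of each other at 70 loci. At 13 loci neurons were above PP by at least 0.75, and at 15 they were below PP by as much.

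**Figure D2:**
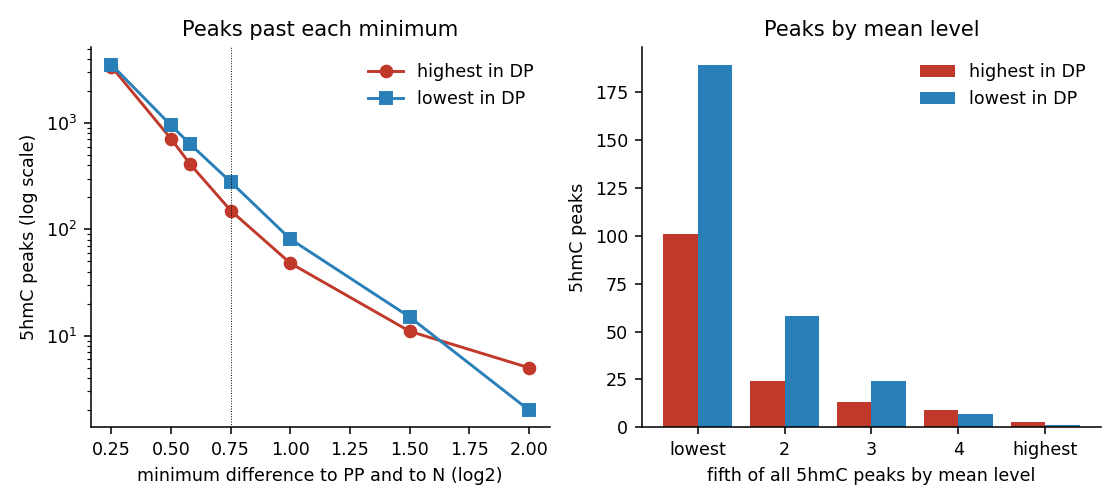
Left, number of transient (red circles) and mirror loci (blue squares) on a log scale against the minimum difference on the log2 scale, with 150 and 279 at 0.75 (dotted). Right, number of both kinds in each of 5 equal bins of all 5hmC peaks by mean level, where 101 transient and 189 mirror loci fall in the lowest bin and 3 and 1 in the highest.

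The locus with the largest difference was a peak of 101 bp that lies 35.5 kb upstream of Pak3, a p21-activated kinase of neurons (chrX:143483006-143483107). Its 5hmC level in the order PP, DP, and neurons was -0.05, 8.57, and -0.05, that is from the lowest value of the table in PP and neurons to a level in DP above that of nearly all peaks. It shared its place with a 5mC peak at 9.52, 9.90, and 7.73 in that order, among the top 1% of 5mC peaks. The 2 next in order were a peak 4.94 kb downstream of AY036118, at -0.05, 4.34, and -0.05, and a peak upstream of Gm11400, at 1.02, 3.58, and -0.05. A peak beside Snord37, a small nucleolar RNA gene, was at -0.05, 3.23, and 0.85, and its 5mC peak stood at 9.13, 9.16, and 9.09. These 4 loci have in common that a mean over replicates was at the lowest level of the table in PP or in neurons, which 105 peaks reached in PP and 4 in neurons. Whether single replicates made these values could not be seen from means.

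The other loci with the largest differences changed less. Beside C8b, a complement gene, 5hmC was at 2.50, 4.81, and 2.39 in PP, DP, and neurons. Within Arhgap10 it was at 0.98, 4.64, and 2.77, and upstream of Jmjd1c, of the family of histone demethylases, at 2.96, 4.66, and 2.78. Each of these loci belonged to the lowest part of the table by mean level. The same was true of the loci near Gm11185 (1.91, 4.86, and 3.17), Gm16060 (3.24, 4.84, and 3.16), Gm15658 (2.89, 4.40, and 2.40), and Htr1a, a serotonin receptor gene (3.06, 4.55, and 2.64), whereas the locus near Nat9 was higher (3.87, 5.46, and 3.35). At the other end, the loci just inside the rule were within Tns1, a focal adhesion gene, at 3.34, 4.14, and 3.39, and beside Gm17141, at 3.71, 5.14, and 4.39. Just outside lay a peak upstream of Htra3, a serine protease gene, at 3.73 in PP and 4.48 in DP, and a peak within Ston2, an endocytic adaptor gene, at 3.56 and 4.77. Within a further step of 0.05 below the minimum there were 44 more peaks, so the rule cuts through a continuous range.

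The mirror loci with the largest differences lay near Gm15599, Gm6043, St8sia1, Tbc1d22a, Phactr2, and Foxo1, and had DP levels between 0.09 and 2.10. St8sia1, a sialyltransferase of gangliosides, was at 4.05 in PP and 2.10 in DP, and Foxo1, a forkhead transcription factor, at 2.92 and 1.12. Gm15599 was also nearest to a transient locus, at 3.80, 4.68, and 3.79, at another place 137 kb from its TSS.

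Some transient loci had a high level in DP. The 8 loci with the highest level in DP were, after Pak3, within Rwdd3, a regulator of SUMO conjugation (4.7, 6.48, and 5.62), within Sfi1, a centrin-binding protein (5.43, 6.40, and 3.75), within Rgnef, now Arhgef28 (5.01, 6.31, and 5.28), within Pvrl1, now Nectin1, an adhesion molecule (5.08, 6.15, and 4.15), within Acpl2, now Pxylp1 (5.18, 5.99, and 5.21), downstream of Emx1 (4.28, 5.98, and 4.53), and within Epb4.1l4a (4.82, 5.93, and 5.03). In each of them but Pak3, 5hmC was well above the floor in all 3 cell types, and DP exceeded the second highest cell type by less than in the loci at the top of the list by difference.

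Transient loci were spread over all 20 chromosomes of the table and lay where 5hmC peaks lie in general. Inside a gene were 55 (36.7%, against 36.2% of all peaks), upstream 58 (38.7% against 42.1%), and downstream 37 (24.7% against 21.4%), and the median distance to the nearest TSS was 29.0 kb against 27.2 kb. Mirror loci were inside a gene more often, with 137 of 279 (49.1%), and among peaks at or above the median level 12 of 20 transient loci (60.0%) and 9 of 16 mirror loci (56.2%) were, against 36.1% of all peaks of that level. Only 8 transient loci (5.33%, against 6.63% of all peaks) lay within 2 kb of a TSS. These were near Gm17141, Tmc2, 0610011L14Rik (now Aar2), RP23-164N15.3, Fam126b, Rhbdd2, 7SK, and Snord37, with DP levels between 3.23 and 5.14. The locus at Tmc2, a transmembrane channel gene, lay 213 bp upstream of its TSS and was at 4.06, 5.06, and 4.27. At Fam126b the locus lay 447 bp inside the gene and was at 3.38, 4.55, and 3.34, and at Rhbdd2, a rhomboid family gene, 433 bp inside at 3.08, 4.33, and 3.47. The usual distance was thus far beyond a promoter, and 30 loci (20.0%, against 17.4% of all peaks) lay beyond 100 kb, where the nearest gene is a weak guide to the gene concerned.

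Neighbouring 5hmC peaks were highest in DP no more often than 5hmC peaks in general. Within 10 kb of 110 of the transient loci lay 204 other 5hmC peaks, of which 42 (20.6%) were highest in DP by any margin, against 25.7% of all peaks. Their median difference was 0.06 between DP and PP and -0.15 between DP and neurons, so the neighbours as a group were not higher in DP. The transient loci themselves had a median width of 156.5 bp, against 164 bp for all peaks. Most loci also had no other transient locus within 1 Mb, a count that was not set beside one for other peaks. Within 1 Mb of another transient locus were 25 of 150, in 10 clusters, and the densest held 5 loci in 728 kb of chromosome 11, near Gm11400, Sfi1 (2 loci), Gm12592, and 4921536K21Rik. The peaks at Sfi1 reached high levels of normalized reads in both pull-downs. Its 11 5hmC peaks had DP levels between 4.12 and 7.42, its 6 5mC peaks between 6.0 and 10.4, and 7 of the 11 5hmC peaks were highest in DP by any margin. The 2 transient loci of Sfi1 were at 5.43, 6.40, and 3.75 and at 3.09, 4.12, and 2.70. On chromosome 1, 4 loci lay in 1747 kb, near Kif26b, Gm16564, Cnst, and Adck3. Only Pvrl1 and Sfi1 were nearest to more than 1 transient locus, and the 2 loci of Pvrl1, 8.92 kb apart from end to end, were at 5.08, 6.15, and 4.15 and at 4.42, 5.39, and 3.99. In both, neurons were below PP, whereas 4 of the 26 5hmC peaks of Pvrl1 were highest in DP by any margin.

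The 5mC table was not used to choose the loci and holds a readout of the same places by another antibody. In all, 30 of the loci (20.0%) overlapped a 5mC peak by at least 1 bp, against 14.2% of all 5hmC peaks and 56 mirror loci (20.1%). At these 30 places 5mC had medians of 5.38, 4.61, and 4.02 in PP, DP, and neurons, against 5.21, 5.15, and 4.82 over all 6725 such pairs and 5.30, 5.30, and 4.77 at mirror loci. The medians of transient loci were thus close to those of other pairs in PP and lower in DP and in neurons. By any margin, however, 22 of 30 (73.3%) were lower in neurons than in PP, beside 82.1% of mirror loci and 78.0% of all pairs, and 73.3% were lower in neurons than in DP, against 89.3% and 78.1%. Lower in DP than in PP were 22 of 30 (73.3%), against 57.1% of mirror loci and 56.1% of all pairs, and at a minimum of 0.58 for the choice of 5hmC peaks 34 of 59 (57.6%). In neurons the transient loci thus differed from the others in the size of the loss at some loci and not in a larger share with a lower level. A level lower by at least 0.75 in neurons than in PP, called a loss here, was found at 17 of 30 transient loci (56.7%), against 24.4% of all pairs and 17 of 56 mirror loci (30.4%). From PP to DP this held for 11 of 30 (36.7%), against 4.39% of all pairs and 3 mirror loci (5.36%), and from DP to neurons for 16 of 30 (53.3%), against 21.2% and 16 mirror loci (28.6%). A level at least 0.75 higher in neurons than in PP was seen at 0 transient loci and at 0.952% of all pairs. The difference to the mirror loci was widest for large losses. A loss of at least 2 was found at 15 of 30 transient loci, against 4.94% of all pairs and 0 of 56 mirror loci. At a minimum of 0.58 for the choice of 5hmC peaks, 22 of 59 (37.3%) had a loss. These are shares of few loci without a replicate error, and no test of the difference was made.

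**Figure D3:**
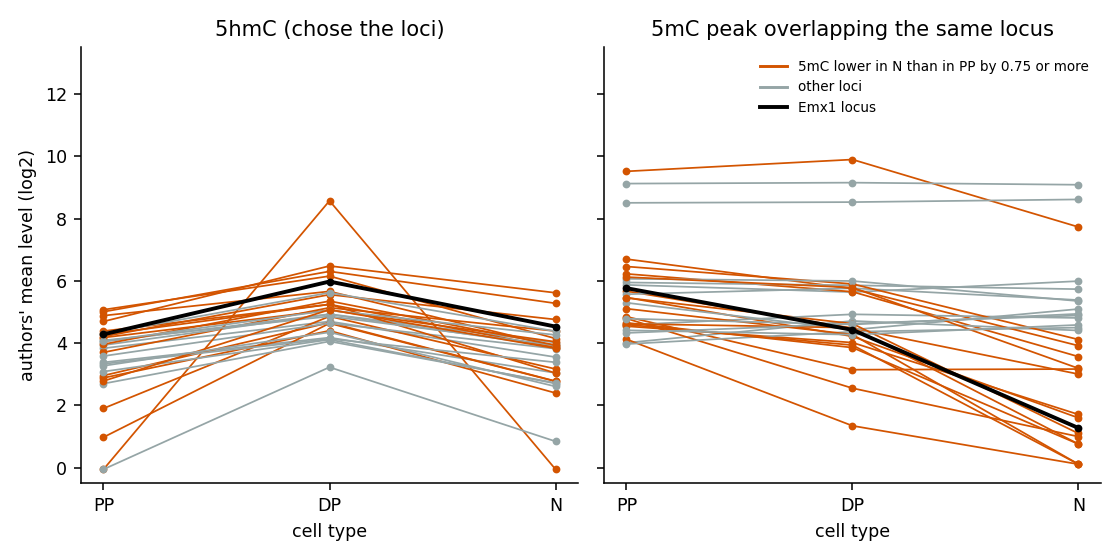
Authors' mean levels (log2) in PP, DP, and neurons at the 30 transient loci that overlap a 5mC peak, 1 line per locus, for 5hmC (left, the values that chose the loci) and 5mC (right). At 17 loci (orange, and Emx1 in black) 5mC is lower in neurons than in PP by at least 0.75, with a median of 1.60 in neurons, while the other 13 (gray) differ by less between PP and neurons.

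The 30 loci fell into 2 kinds by their 5mC. At the 17 with a loss, 5mC had medians of 5.46, 4.43, and 1.60, and the level was lower at both steps in 15 of them. The difference of neurons to DP (median -2.31) was larger than that of DP to PP (median -0.83) in 14. Their 5hmC was at 4.18, 5.25, and 3.90. That 5hmC was highest in DP and 5mC lower in neurons than in PP was set by the choice of these loci. The 5mC level in DP was not used for the choice, and its median lay between those of PP and neurons. At the 13 other loci 5mC had medians of 5.30, 4.93, and 5.10, and 5hmC at 3.59, 4.64, and 3.55. The 120 loci without a 5mC peak had 5hmC of 3.72, 4.73, and 3.65, close to that of the 13.

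Emx1, a homeobox gene of the dorsal telencephalon, had a transient locus with a loss of 5mC. Its transient locus (chr6:85220085-85220241) lies 32.7 kb downstream of the TSS and was at 4.28, 5.98, and 4.53 for 5hmC, that is 3.24-fold higher in DP than in PP. The 5mC peak that overlaps it went from 5.77 to 4.43 and 1.28 along the lineage. In neurons, 5mC was thus low and 5hmC was near its level in PP. Emx1 had 10 5hmC peaks in all, and 2 of them were highest in DP by any margin, beside 25.7% of all 5hmC peaks. The second lay 30.7 kb from the TSS, at 5.30, 5.69, and 4.93. Its neighbour at 35.3 kb was highest in neurons, with 4.82, 5.60, and 5.71, and a peak at 19.7 kb was lowest there, with 6.45, 6.23, and 4.64. At that last place too 5mC was low outside PP, with 4.33, 1.57, and 1.69. The 5hmC peaks of 1 gene thus followed different courses.

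Further losses of 5mC were found near genes of varied function. Within Rwdd3, 5mC went from 5.11 to 4.28 and 0.11, the lowest neuronal level of the 5mC table, which 3 of the 17 loci reached in neurons. The others were near Sec61b, a subunit of the protein translocation channel (4.60, 3.94, and 0.11), and near Gm15658 (4.13, 1.35, and 0.11). Within Slc6a17, a synaptic vesicle transporter of amino acids, 5mC was at 4.62, 4.50, and 0.76, and within Pvrl1 at 4.66, 3.86, and 0.76. In these 2 genes most of the loss lay between DP and neurons, with 5hmC at 4.18, 5.06, and 4.04 in the former. Near Ndufs4, a subunit of respiratory complex I, 5mC was at 5.46, 4.63, and 1.1, near Jmjd1c at 5.47, 4.22, and 1.60, and near Gm11185 at 4.79, 2.55, and 1.0. Losses that ended at a higher level were seen within Rgnef (6.46, 5.90, and 4.12) and Arhgap10 (6.23, 5.65, and 3.57) and near Crnkl1, a splicing factor (5.67, 4.48, and 3.01). Within 1110012J17Rik, now Mtcl1, a microtubule crosslinking factor, the lower level was reached in DP (4.85, 3.15, and 3.17). Pak3 departed from the rest, since its 5mC was highest in DP, at 9.52, 9.90, and 7.73.

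Among loci without a loss from PP to neurons was the one within Lef1, with 3.97, 4.37, and 4.50. Within Zfp651 5mC was at 4.79, 4.60, and 4.94, and upstream of Papola, a poly(A) polymerase, at 5.95, 5.86, and 5.74. Near Krcc1 it was lowest in DP, at 5.30, 4.43, and 5.10, a locus named after its values were seen. The 5mC peaks of Snord37 and Sfi1 (8.51, 8.53, and 8.62) belonged with Pak3 to the top 1% of 5mC peaks, and these 3 loci were among the few whose 5mC was far above the range of the others.

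The loss of 5mC was also seen at 5hmC peaks with a high level. Of the 20 transient loci at or above the median 5hmC level, 7 overlapped a 5mC peak, and 6 of these 7 (85.7%) lost at least 0.75 from PP to neurons, against 20.7% of all pairs at or above that level and 1 of 5 mirror loci (20.0%). Chosen after their values were seen, these were the loci of Rwdd3, Rgnef, Pvrl1, Emx1, Crnkl1, and 1110012J17Rik, and the 7th was that of Zfp651. The 7 loci had a median 5mC of 5.11, 4.43, and 3.01 along the lineage.

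Most places of strong 5mC loss had their highest 5hmC in neurons. At the 332 pairs that lost at least 2 from PP to neurons, 5hmC had medians of 3.89, 4.75, and 5.17 in PP, DP, and neurons. It was highest in neurons at 241 (72.6%), in DP at 75 (22.6%), and in PP at 16 (4.82%), against 58.7%, 18.4%, and 23.0% of all pairs. 5hmC was higher in DP than in PP at 302 of the 332 (91.0%, against 60.8% of all pairs). The 15 transient loci among them were 50% of the transient loci with a 5mC peak and 4.52% of the losses, beside a share of 0.446% (30 transient loci) over all 6725 pairs, and 0 mirror loci were found there. A higher level of 5hmC in DP than in PP was thus shared by most places of strong 5mC loss, whereas a lower level in neurons than in DP was found at a minority of them.

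The transient loci were nearest to 148 genes, among them several with highest expression in DP. Of these, 14 (9.46%) were at least 1.5-fold higher in DP than in both PP and neurons, against 3.5% of the 12848 genes nearest to any 5hmC peak and 11 of 268 genes of mirror loci (4.10%). Without a minimum fold 34 were highest in DP (23.0%, against 18.6%, and 16.8% for mirror loci). In turn 7 (4.73%) were at least 1.5-fold lower in DP than in both, against 5.35% of all genes and 9.33% of genes of mirror loci. Most nearest genes did not follow the course of their locus. Of the 148, 43 had stepwise higher values along the lineage (29.1%, against 29.8%), 39 stepwise lower ones (26.4%, against 30.5%), and 32 were lowest in DP (21.6%, against 20.5%). The median log2 ratio of DP to PP was 0.04 and that of neurons to DP 0.01, near 0 as for all genes. The scale of the expression values is not named in the tables, so they are compared within a gene only, and they carry no error. Several of the 14 genes were hardly expressed, and with a summed expression of at least 100 over the 3 cell types 9 of 112 were at least 1.5-fold higher in DP (8.04%, against 2.24%). At a minimum of 0.58 for the choice of loci the share was 24 of 398 (6.03%) and at 1.0 it was 3 of 48 (6.25%), and 9 of 48 (18.8%) were highest in DP by any margin, close to the 18.6% of all genes. With 10 added to every value 8 of 148 were (5.41%, against 2.10% of all genes and 2.24% of genes of mirror loci).

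**Figure D4:**
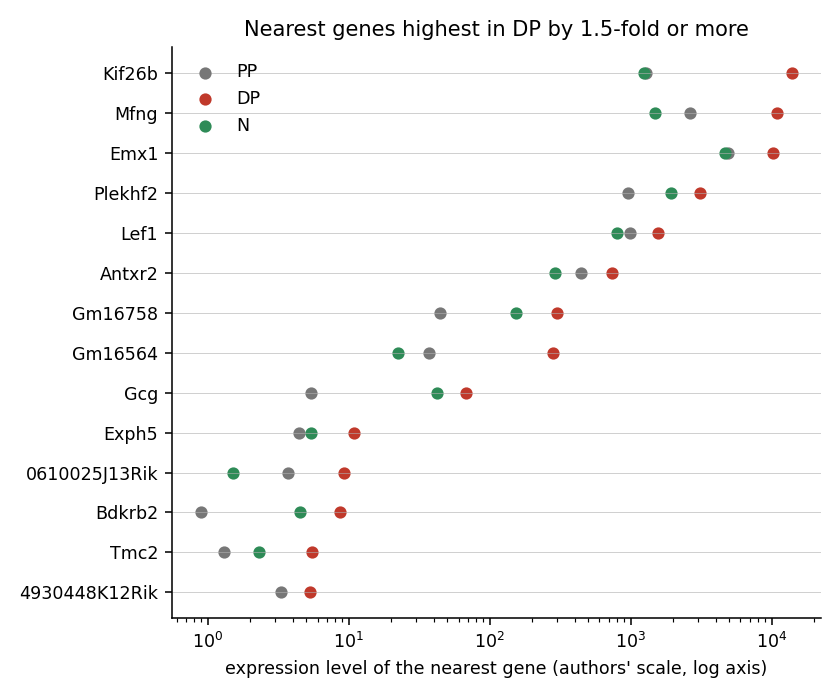
Expression of the 14 nearest genes at least 1.5-fold higher in DP (red) than in PP (gray) and neurons (green), on the authors' scale and a log axis, 1 row per gene. Kif26b has the widest gap between DP and the next highest cell type, from 1275 in PP to 13863 in DP. The value of 4930448K12Rik in neurons is 0 and not drawn.

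Kif26b, a gene of the kinesin family, had the largest contrast between DP and the next highest cell type. Its expression went from 1275 in PP to 13863 in DP and 1244 in neurons, 10.9-fold and 11.1-fold higher in DP. The transient locus (chr1:178484012-178484175) lies 45.0 kb upstream of its TSS and was at 3.46, 4.50, and 3.41 for 5hmC, without a 5mC peak. Peaks were counted by the nearest gene that the authors assigned, so the peaks of a gene need not cover all of it. Of the 6 5hmC peaks assigned to Kif26b 2 were highest in DP by any margin, beside 25.7% of all 5hmC peaks. A further 3 between 15.6 and 42.1 kb upstream were highest in neurons, such as the one at 42.1 kb, with 4.50, 4.93, and 5.68.

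Mfng encodes a glycosyltransferase that modifies Notch receptors and was the only gene of the Notch pathway and of the list of differentiative progenitor genes with a transient locus. Its expression was 2648, 10833, and 1496, 4.09-fold and 7.24-fold higher in DP. The locus (chr15:78754675-78754836) lies 18.7 kb downstream of the TSS and was at 3.85, 4.96, and 4.06. It was the only one of 6 5hmC peaks of Mfng to be highest in DP, beside 25.7% of all 5hmC peaks. A pair of peaks within the gene increased from PP to DP and neurons, at 4.02 kb (4.51, 5.30, and 5.74) and at 12 kb (4.30, 5.15, and 6.20), and a peak near the TSS, at 1.03 kb, was lowest in neurons (4.87, 4.68, and 3.96).

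Emx1 was expressed at 4886, 10161, and 4664, 2.08-fold and 2.18-fold higher in DP, and its locus joined all 3 readouts, with 5hmC and expression highest in DP and 5mC lower at each step. Among the 17 loci with a loss of 5mC it was the only one whose nearest gene was at least 1.5-fold higher in DP. Lef1, a transcription factor of the Wnt pathway, was expressed at 982, 1568, and 795. Its transient locus within the gene (chr3:131179065-131179199) was at 4.05, 4.93, and 4.02. Of the 11 5hmC peaks of Lef1, 3 were highest in DP by any margin, beside 25.7% of all 5hmC peaks. Lef1 also held a mirror locus 42.6 kb from its TSS, at 4.23, 3.33, and 4.11, so that both patterns occurred within 1 gene. Plekhf2, a protein of early endosomes, was expressed at 958, 3089, and 1939, and its locus 13.3 kb upstream was at 3.78, 4.67, and 3.83.

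**Figure D5:**
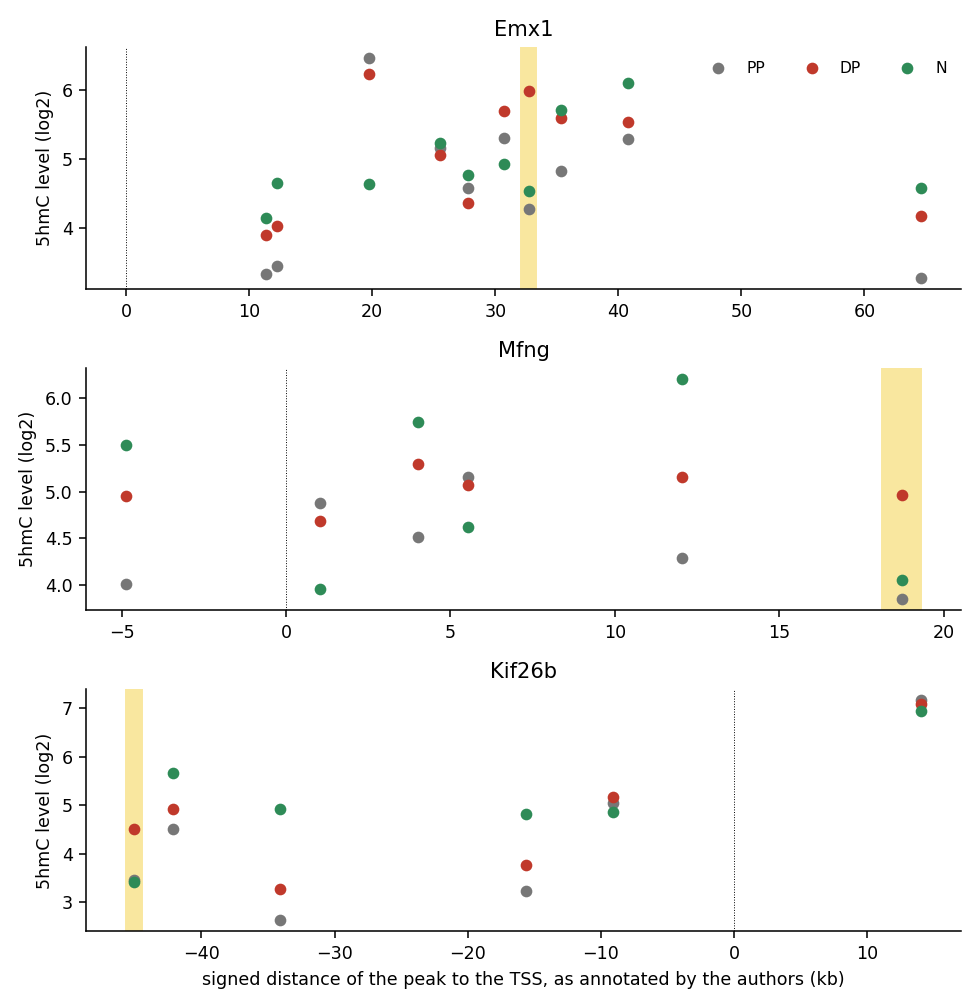
5hmC levels (log2) of all peaks with Emx1, Mfng, or Kif26b as the nearest gene in PP (gray), DP (red), and neurons (green). They are drawn against the distance to the TSS in kb, with the transient locus shaded. Highest in DP by any margin are 2, 1, and 2 peaks of the 3 genes, among 10, 6, and 6, beside 25.7% of all 5hmC peaks.

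Like Kif26b, Emx1, and Plekhf2, the other genes with high expression in DP were in none of the gene lists used here. Gm16564 was at 36.8, 283, and 22.5, with a locus 205 kb upstream at 4.46, 5.26, and 4.50, and Gm16758 was at 44.5, 298, and 153, with a locus 33.7 kb upstream at 4.18, 4.98, and 2.59. Antxr2, an anthrax toxin receptor gene, was at 445, 743, and 292, and its locus lay 181 kb downstream. Gcg, the glucagon gene, was at 5.40, 67.9, and 42.5. Exph5, 0610025J13Rik, Bdkrb2, Tmc2, and 4930448K12Rik did not exceed 10.9 in any cell type, where a ratio has little meaning.

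In the lists of genes with a part in corticogenesis, 3 genes had a transient locus. Besides Mfng (1 of 101 peaks of the list of differentiative progenitor genes and 1 of 85 of the Notch list), transient loci were found at Lef1 (1 of 156 peaks of the Wnt list, with 3 mirror loci at Fzd5, Lef1, and Sfrp1) and at Epha4 (1 of 249 peaks of the axon guidance list, with 3 mirror loci at Dcc and Robo1). Epha4, an ephrin receptor, was expressed at 25477, 29380, and 15875, and its locus lay 152 kb downstream at 3.53, 4.42, and 3.40. No transient locus was nearest to a gene of the radial glia list (109 peaks), the neuron list (90 peaks), the cell cycle list (71 peaks, with a mirror locus at Mki67), or the list of cytosine modification enzymes (53 peaks). Beside the overall share of 0.316%, counts of 0 or 1 in lists of this size carry little information.

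The promoters of some genes high in DP are printed as examples of what lies near a gene whose transient locus is distant. For Kif26b (chr1:178528875-178529124), Emx1 (chr6:85187681-85187930), and Lef1 (chr3:131110073-131110322) the 250 bases before the RefSeq start are given on the plus strand of GRCm38.p6, with the E-box CANNTG, the kind of motif that bHLH factors of neurogenesis bind, in capitals.
Kif26b: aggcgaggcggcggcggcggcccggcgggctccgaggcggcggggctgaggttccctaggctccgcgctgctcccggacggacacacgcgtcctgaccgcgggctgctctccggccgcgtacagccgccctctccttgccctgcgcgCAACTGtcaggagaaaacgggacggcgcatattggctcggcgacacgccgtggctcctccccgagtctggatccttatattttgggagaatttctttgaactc
Emx1: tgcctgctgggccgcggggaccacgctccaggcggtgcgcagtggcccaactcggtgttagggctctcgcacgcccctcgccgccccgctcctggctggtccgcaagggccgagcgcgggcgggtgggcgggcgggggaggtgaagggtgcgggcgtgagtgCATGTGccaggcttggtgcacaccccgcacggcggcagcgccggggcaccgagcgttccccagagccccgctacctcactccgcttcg
Lef1: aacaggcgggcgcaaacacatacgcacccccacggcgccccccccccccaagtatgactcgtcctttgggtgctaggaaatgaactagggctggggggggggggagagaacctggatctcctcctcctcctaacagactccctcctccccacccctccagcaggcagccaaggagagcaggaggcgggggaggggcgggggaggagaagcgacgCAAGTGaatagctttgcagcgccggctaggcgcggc
These windows hold 32, 30, and 14 CpG, and no 5hmC or 5mC peak of the tables overlaps any of them. The start that RefSeq gives for Emx1 lies 570 bp from the one implied by the distances of the authors. Each window holds 1 E-box. Among the 107 nearest genes with a promoter in RefSeq, 57.9% had an E-box. The share was 58.5% for genes nearest to any 5hmC peak and 66.0% for all RefSeq promoters. Of the specific E-boxes counted apart, CAGCTG had a higher share at the nearest genes, while CAGATG was near the share of all RefSeq promoters. CAGCTG was found in 23 of the 107 (21.5%), against 13.0% and 12.8%. CAGATG, on either strand, was found in 17 (15.9%), against 11.1% and 14.48%. Of 8 such promoters of genes high in DP, 5 had an E-box, 0 had CAGCTG, and 1 had CAGATG. Among the other motifs counted, some had lower and some higher shares than the genes nearest to any 5hmC peak. ACAAAG was found in 8 of the 107 (7.48%, against 12.7%) and TGANTCA in 7 (6.54%, against 4.38%). These differences were not tested. A match is a description of these letters and not a bound site.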

How the data were processed

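The authors mapped the reads (BWA v0.7.8, build mm10), used SICER v1.1 as peak caller, kept those found in the replicates and outside repeats, and obtained levels with DiffBind and TMM; HOMER v4.7 gave the nearest TSS. Each deposited level is the log2 value of normalized reads of a peak, averaged over the replicates of a cell type. The expression columns hold a deposited score from earlier RNA-seq by the authors, 1 per cell type and on an unnamed scale, and the distance columns a score in bp. The columns with the authors' own fold changes, p-values, and expression changes were not used. Neither counts nor depth per sample is given by the tables, and 0 other columns of per-sample values were present.

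All 47478 rows of 5hmC and 55085 rows of 5mC were used. Transient and mirror loci were taken at a difference of at least 0.75. Pairs of peaks shared at least 1 bp (the 5mC peak with the largest overlap), and each nearest gene was counted once. No sample was compared by a test, since each cell type has a single mean. The 12 listed samples were grouped by cell type, mark, and IP or input. The members and lists were chosen with earlier results of these data known. Named loci were the 12 with the largest smaller difference, the 8 with the highest level in DP, those of listed genes, genes with several loci, the 10 highest with a 5mC peak, the nearest to the minimum (2 on either side), 6 mirror loci, those within 2 kb of a TSS, and the 8 with the largest DP expression contrast; other names were chosen after their values were seen. RefSeq (GRCm38.p6) matched 136 of 148 gene symbols. Steps were tested on simulated data. Alternatives were other minimums, levels centred on the median, peaks at or above the median level, autosomes only, merged peaks, other overlaps, and other expression filters. Software was pandas 2.3.3 and numpy 2.4.6 under python 3.11.15, scipy 1.17.1, and, for figures, matplotlib 3.10.9. Enhancers, bisulfite amplicons, and the sequence of whole peaks were not analysed here.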

Additional observations from a re-analysis of the deposited data

How the results depend on the processing

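Of 51 values recomputed under alternatives, 39 moved by less than the 95% binomial interval or the factor of 1.5 and 12 by more. A minimum of 0.58 gave 410 transient and 632 mirror loci, and 1.0 gave 48 and 81. Centring the levels of each cell type gave a ratio of 0.667 (168 to 252 loci). Among peaks at or above the median level there were 20 transient and 16 mirror loci, so that the ratio passed 1, to 1.25, and 60.0% of the transient loci were inside a gene. With a minimum of 0.58, 37.3% of loci with a 5mC peak (22 of 59) lost 5mC from PP to neurons, and with the nearest 5mC peak within 1 kb 30.0% of loci had one, both beside 56.7% and 20.0% as reported. A pseudocount of 10 left 5.41% of nearest genes (8 of 148) at least 1.5-fold higher in DP, and minimums of 0.58 and 1.0 gave 6.03% and 6.25% beside 9.46%. The alternatives for 5mC loss, for the fold of expression, and without loci at the lowest level were chosen after seeing the data. No paired analysis was possible because each cell type has 1 mean, and no replicate could be left out. The shares of E-boxes and numbers of CpG in windows about the peaks were not run, since no genome was used here. The tables do not give the reads behind a level.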
